A study of Saccharomyces cerevisiae with 8 samples.

Results

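The binding of Bdp1 and that of Brf1, 2 subunits of the RNA polymerase III (Pol III) initiation factor TFIIIB, were compared in untreated cells of the budding yeast Saccharomyces cerevisiae. The comparison used 2 of the 8 arrays of a chromatin immunoprecipitation study of the Pol III machinery, the Bdp1 array and the Brf1 array at 0 min, with 1 array a side. Of the 6399 intergenic regions, 6025 had a value on both arrays. Each array was first set to a median of 0 over all its regions, and the difference given throughout is Bdp1 minus Brf1 on the log2 scale, so that 1 unit is 2-fold.

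The study also measured Tau95, a subunit of TFIIIC, and C160, the largest subunit of Pol III, and took all 4 proteins again after 30 min with rapamycin, an inhibitor of the TOR kinase, at 0.2 ng per µl. For the comparison made here, the Bdp1 strain carried Bdp1-13myc and the Brf1 strain Brf1-13myc, both grown in YPD, a rich medium, to exponential phase without any treatment. Each array had 2 channels, and per the labels Cy5 carried DNA immunoprecipitated from the wild type and Cy3 DNA from a maf1 deletion strain, Maf1 being a protein that represses Pol III. The values were read as relative brightness. Which strain gave them, and what they were divided by, is unknown, as is any effect of the tags on either subunit.

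TFIIIB consists of the TATA-binding protein, Brf1 and Bdp1. At tRNA genes TFIIIC binds promoter elements inside the gene and places TFIIIB upstream of the start site, with Brf1 and the TATA-binding protein entering before Bdp1. TFIIIB then recruits the polymerase and can stay bound over many rounds of transcription. Both subunits are needed at all known Pol III genes of yeast, which besides tRNA genes include the genes of 5S rRNA, of U6 snRNA (SNR6), of the RNase P RNA (RPR1), of the signal recognition particle RNA (SCR1) and of the snoRNA SNR52.

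The arrays differed in breadth before any class was considered. The interquartile range over regions was 1.998 on the Bdp1 array and 1.51 on the Brf1 array, and values were missing for 371 and 122 regions. Of the 252 regions with a Brf1 value only, most were dim, with a median Brf1 value of -1.30, and 6 reached 1 or more. The brightest of these, at 8.10 for Brf1, had no Bdp1 value at 0 min. It is named for the 35S rRNA gene RDN37-1 and was taken to lie between that gene and the 5S rRNA gene RDN5-1. No replicate values were used here, so no difference carries a replicate error or a p-value, and sizes are set beside the same figures over all regions.

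The regions of tRNA genes were bright for both subunits and spread widely in both directions around equal centred values, which need not mean equal binding. The 245 regions with a difference, of 250 named for 243 tRNA genes, had a median of 3.20 for Bdp1 and 3.07 for Brf1. Their median difference was -0.0048 with quartiles of -0.54 and 0.53, against -0.08 over all regions, and its sign turned to 0.18 when arrays were centred on ribosomal protein genes. It also turned to 0.11 when chromosome medians were subtracted, 0.09 with values as deposited, 0.06 centred on regions away from Pol III genes and repeats and 0.03 with a mean of at least 1, and it was -1.15 when the Brf1 array was scaled to the spread of the Bdp1 array.

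Of the tRNA gene regions, 33 (13.5%) were at least 2-fold higher for Bdp1, where 5.76% of all regions were. At least 2-fold lower were 31 (12.7%), where 8.18% of all regions were. Among the 1515 regions with a mean of at least 1 on the 2 arrays, these shares were 14.9% and 5.28%. Of tRNA gene regions 91.4% were that bright, against 25.1% of all regions. The tRNA gene share higher for Bdp1 was thus near that of bright regions, and the share lower was above it. The other 181 tRNA gene regions (73.9%) lay within 2-fold. Which side held more depended on the scale: the counts higher and lower were 36 and 19 with values as deposited, 42 and 15 centred on ribosomal protein genes, and 34 and 20 either centred on regions away from Pol III genes and repeats or with chromosome medians subtracted. They were 23 and 37 when the Brf1 array was scaled to the tRNA median of the Bdp1 array, 16 and 40 after a lowess curve on brightness was subtracted, and 6 and 140 after scaling to equal spread. Over all regions 347 were higher and 493 lower, which became 446 and 360 as deposited, 562 and 285 centred on ribosomal protein genes, 247 and 887 after scaling to equal spread, 430 and 338 with chromosome medians subtracted, and 225 and 80 among regions whose mean of both arrays was at least 1. Centring on ribosomal protein genes moved the median of all regions by 0.19.

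**Figure D1:**
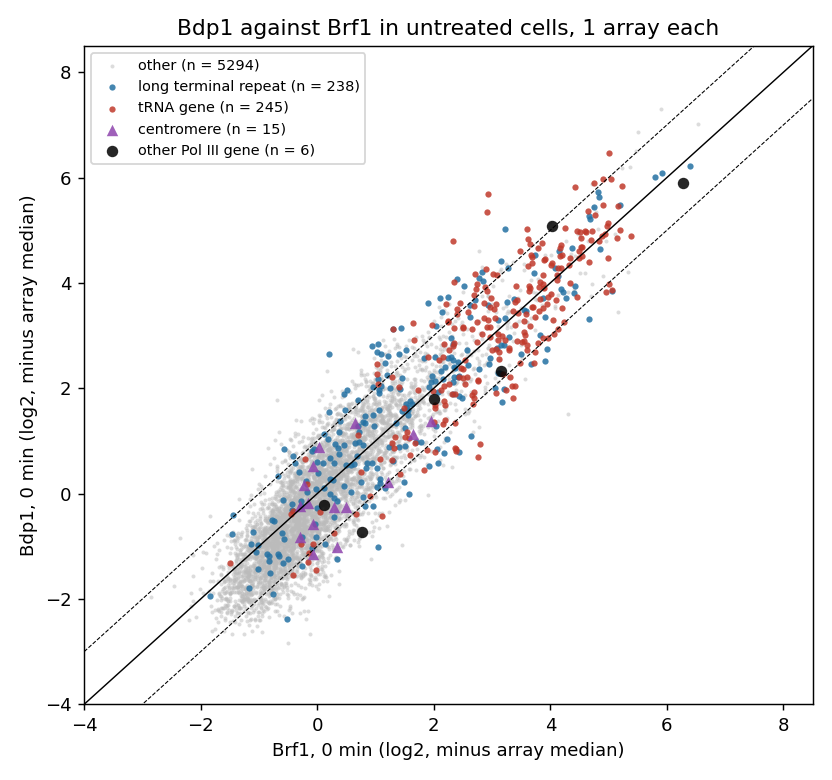
Centred log2 value of each region on the Bdp1 array (vertical axis) against the Brf1 array (horizontal axis) at 0 min, coloured by class, with regions beside tRNA genes not drawn. The solid line marks equal values and the dashed lines 2-fold. tRNA gene regions lie at the bright end on both sides of the line, and single regions lie well outside 2-fold.

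The widest excess of Bdp1 at a tRNA gene was at tS(UGA)E, a serine tRNA gene, with 5.69 for Bdp1 against 2.93 for Brf1 and a difference of 2.76. The leucine tRNA gene tL(CAA)G1 had 4.80 for Bdp1 against 2.33 for Brf1, a difference of 2.47. The valine tRNA gene tV(AAC)G3 had 5.35 against 2.92, a difference of 2.43. These 3 regions stood apart from the rest of the class, whose next differences were 1.83 at the tyrosine tRNA gene tY(GUA)O (3.12 for Bdp1, 1.30 for Brf1) and 1.68 at the glutamine tRNA gene tQ(UUG)B (4.02 for Bdp1, 2.34 for Brf1).

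The polymerase value at the 3 leading regions lay between the subunits. C160 was at 3.18 at tS(UGA)E, 3.86 at tL(CAA)G1 and 3.66 at tV(AAC)G3, and Tau95 at 1.79, 1.86 and 3.26. Each of the 3 stayed more than 2-fold higher for Bdp1 under the 7 alternatives that can move a single value, with the lowest differences, all after scaling to equal spread, being 1.72, 1.65 and 1.40. The 2 arrays at 30 min of rapamycin gave them differences of 1.93, 2.27 and 2.53. The regions of tS(UGA)E and tV(AAC)G3 are, by the numbering of their names, pieces of a longer divided region.

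At the other end, the asparagine tRNA gene tN(GUU)F had 0.70 for Bdp1 against 2.76 for Brf1, a difference of -2.06. The serine tRNA gene tS(AGA)G had 0.95 against 2.79, a difference of -1.85. The next 3 among regions with a mean of at least 1 on the 2 arrays were the aspartate gene tD(GUC)K at -1.57 (0.81 for Bdp1, 2.38 for Brf1), the phenylalanine gene tF(GAA)H2 at -1.54 (0.84 and 2.39) and the serine gene tS(AGA)D2 at -1.53 (1.82 and 3.35). Here 4 of the 5 regions were below 1 for Bdp1 while all 5 were above 2 for Brf1. The regions were chosen by the difference and mean of these same values, which favours such counts, so they are a description. C160 lay between the subunits at tN(GUU)F (1.60), tS(AGA)G (1.999) and tD(GUC)K (1.57), below both at tF(GAA)H2 (0.63) and above both at tS(AGA)D2 (3.48).

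At 30 min the difference of these low regions was nearer to 0 except at tF(GAA)H2. It was -0.82 at tN(GUU)F, -0.54 at tS(AGA)G, -0.27 at tD(GUC)K, -2.02 at tF(GAA)H2 and 0.18 at tS(AGA)D2. The 3 brightest tRNA gene regions by the mean of both arrays had Bdp1 on the higher side, with 6.46 against 5.01 at tL(CAA)A, 5.83 against 5.24 at tS(AGA)J and 5.97 against 5.04 at tG(UCC)G. Their differences of 1.44, 0.60 and 0.93 turned to -0.34, -1.26 and -0.85 after scaling to equal spread.

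Between the 33 regions higher for Bdp1 and the 31 lower, the median of Bdp1 differed and that of Brf1 hardly did. The Bdp1 array was also the wider over tRNA gene regions, with a standard deviation of 1.60 against 1.32. Median Bdp1 was 3.98 in the higher and 1.33 in the lower regions, while median Brf1 was 2.71 and 2.79, beside 3.25 and 3.30 for Bdp1 and Brf1 in the 181 regions within 2-fold. The members were chosen by the difference of these same values, so these medians are a description. C160 and Tau95 had medians of 3.18 and 2.07 in the higher regions and 1.999 and 1.07 in the lower regions. Within 2-fold they were 3.08 and 2.04. The regions lower for Bdp1 were also the dimmer ones for polymerase and TFIIIC, and the higher ones were close to the remainder. The choice did not use C160 or Tau95 directly. The difference rose with the mean of both arrays in this class (r = 0.36), so their medians are not independent of the choice.

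Across the 245 regions Bdp1 and Brf1 each followed the polymerase closely, with Pearson's r to C160 of 0.91 for Bdp1 and 0.90 for Brf1, and r to Tau95 of 0.86 for both. The difference itself was only loosely related to C160 (r = 0.32) and Tau95 (r = 0.30). These are descriptions across regions that share arrays, probes and brightness, and regions are not replicates.

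The tRNA families did not divide into a Bdp1-rich and a Brf1-rich set. Family medians of the difference lay between -0.54 for cysteine (n = 3) and 0.35 for arginine (n = 15). Cysteine, histidine (-0.43, n = 6) and aspartate (-0.41, n = 12) were the only 3 of 20 families whose median had the same sign under the 8 centrings and scalings, main one included, and all 3 were negative. Alanine (0.26, n = 11), lysine (0.25, n = 19) and serine (0.23, n = 16) were positive here and negative after scaling to equal spread. That scaling put all 20 family medians below 0, from -1.71 for cysteine to -0.57 for lysine. No positive family could therefore keep its sign, and the shared sign of the 3 families follows from this setting.

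Genes with the same anticodon, whose RNA products are alike or identical, spread nearly as widely as the class. The 15 regions of AAC valine tRNA genes ran from -1.53 at tV(AAC)G1 to 2.43 at tV(AAC)G3, and the 9 of GUU asparagine genes from -2.06 at tN(GUU)F to 1.39 at tN(GUU)G. AGA serine genes (n = 9) ran from -1.85 to 1.45. Among the CCA tryptophan genes (n = 6) the lowest and the highest region, at -1.43 and 1.47, belonged to the same gene, tW(CCA)K. Such a spread was thus not only a difference between genes. The narrowest of the 22 anticodons with at least 5 regions was UUU lysine, whose 5 regions lay between 0.09 and 1.05. AGC alanine was next, with 7 regions between -0.54 and 0.85 and none past 2-fold. The 33 regions higher for Bdp1 came from 13 families and 19 anticodons, and the 31 lower ones from 18 families and 22 anticodons.

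**Figure D2:**
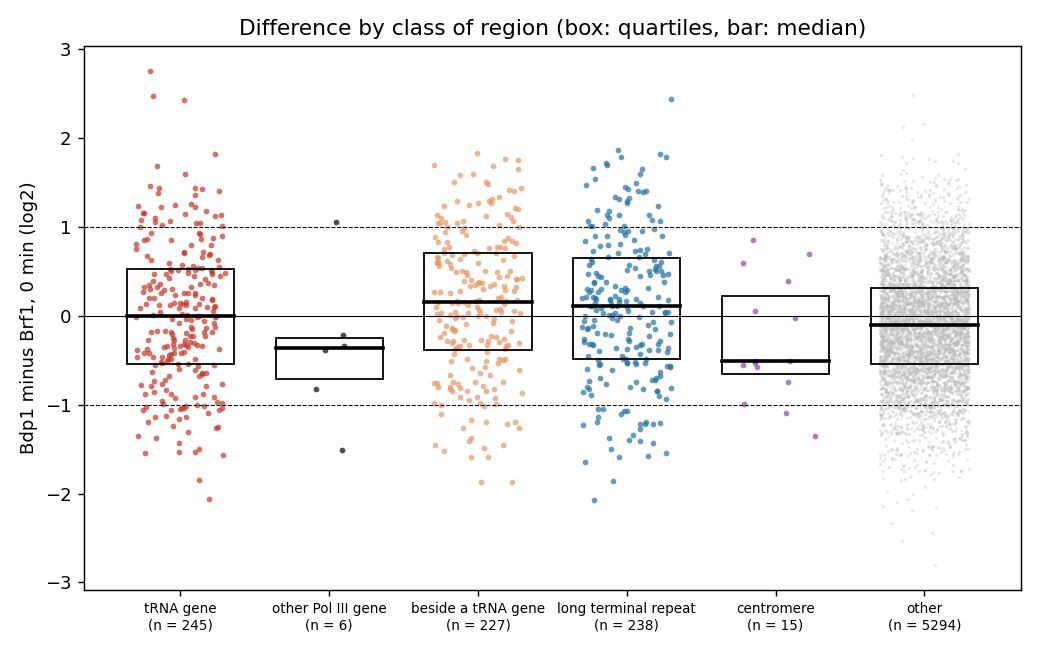
Bdp1 minus Brf1 at 0 min (log2, vertical axis) for every region of each class, with the quartiles as a box, the median as a bar and dashed lines at 2-fold. tRNA genes, their neighbours and long terminal repeats spread further on both sides than other regions, with medians between -0.0048 and 0.16 here. The signs of these 3 medians change with centring or scaling.

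The difference moved with brightness. Over all regions the median difference was -0.53 where the mean of both arrays was under -1 (n = 889), 0.28 from 1 to 2 (n = 782) and 0.60 at 5 or more (n = 45). At the same brightness, tRNA gene regions stood lower than other regions over most of the range. From 1 to 2 their median difference was -0.48 (n = 32), against 0.30 in other regions (n = 667). From 2 to 3 it was -0.13 (n = 54) against 0.31 (n = 194), and from 3 to 4 it was -0.05 (n = 74) against 0.20 (n = 61).

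From 4 to 5 the order was the opposite, at 0.30 for tRNA genes (n = 50) against 0.10 for other regions (n = 23), and at 5 or more it was 0.58 (n = 14) against 0.89 (n = 10). The gap between the classes lay between -0.998 and -0.769 from 1 to 2 under 8 settings, main one included. It lay between -0.53 and -0.41 from 2 to 3 and between -0.28 and -0.19 from 3 to 4. It kept its sign at each brightness. Values as deposited and centring on other sets of regions shift both classes alike, so those settings could not move the gap. Only the 2 scalings, the lowess curve and the chromosome medians could. Other regions of this brightness may differ from tRNA gene regions in length and position, and the part of either in the gap was not tested. Long terminal repeats followed the other regions more than the tRNA genes, at 0.51 from 1 to 2 (n = 49) and 0.10 from 2 to 3 (n = 46).

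**Figure D3:**
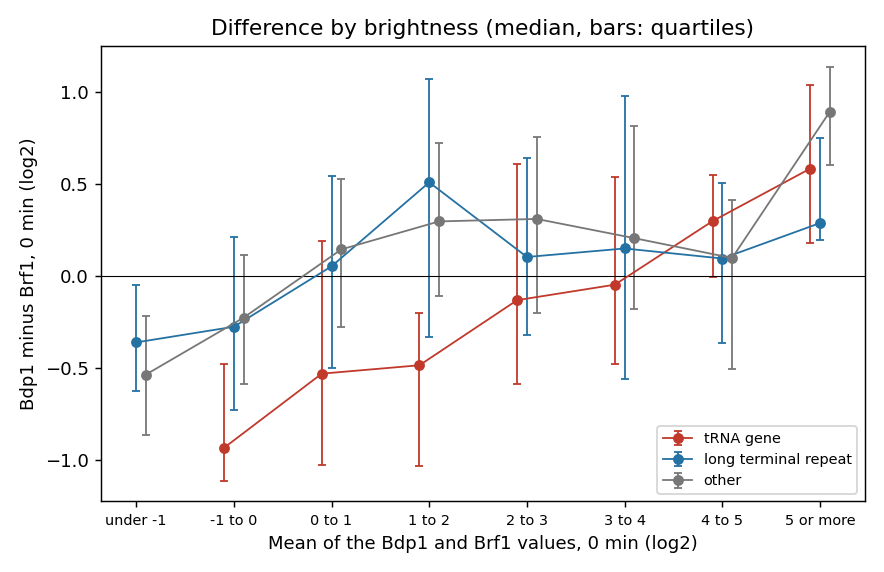
Median difference, Bdp1 minus Brf1 at 0 min (log2, vertical axis), by the mean of both arrays (horizontal axis, log2 classes), with quartiles as bars, for tRNA gene regions, long terminal repeats and other regions where a class held at least 5 regions. At means from 1 to 2 tRNA genes stand at -0.48 and other regions at 0.30, and both stand above 0 at 5 or more.

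The Pol III genes other than tRNA genes differed among themselves. Of the 7 regions named for them, 6 had a difference, with a median of -0.36. SNR6, the U6 snRNA gene, had 5.09 for Bdp1 against 4.03 for Brf1, a difference of 1.06, with C160 at 4.61 and Tau95 at 3.18. RPR1, the RNase P RNA gene, had 2.33 for Bdp1 against 3.16 for Brf1, a difference of -0.82, with C160 at 3.25. SCR1, the signal recognition particle RNA gene, whose region also borders a tRNA gene, had 1.79 for Bdp1 against 2.01 for Brf1, a difference of -0.22, with C160 at 3.29.

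SNR6 was the only one of the 6 with the higher value for Bdp1, which 44.5% of all regions had. Its difference turned to -0.37 after scaling to equal spread. At 30 min it was 0.97 at SNR6, -0.15 at RPR1 and -1.93 at SCR1, where Bdp1 stood at 1.75 and Brf1 at 3.68. The regions near SNR6, chosen after their values were seen, leaned the same way: the region between REX3 and SNR6 had 1.59 for Bdp1 against 0.98 for Brf1, and the region on the far side of YLR108C, the gene that follows SNR6, had 2.08 against 0.74.

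The 2 regions that border SNR52 differed. The region named SNR52 was dim, with a Brf1 value of -0.85 and no Bdp1 value. The region between PMD1 and SNR52, named for being among the 5 highest differences of other regions, had 2.74 for Bdp1 against 0.61 for Brf1, a difference of 2.13, with C160 at 1.37 and Tau95 at 2.07. At 30 min it had 2.22 for Bdp1 against 0.38 for Brf1. On both pairs of arrays Bdp1 was bright there and Brf1 was within 1 log2 unit of its array median.

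The regions of 5S rRNA genes were higher for Brf1 at 0 min. RDN5-1 was among the brightest regions of both arrays, with 5.90 for Bdp1 and 6.28 for Brf1, a difference of -0.38. RDN5-2 had -0.73 against 0.77, a difference of -1.50, and RDN5-3 had -0.22 against 0.12. The lowest difference of all 6025 regions was at the region between YLR161W and RDN5-6, with 1.51 for Bdp1 against 4.31 for Brf1, a difference of -2.80, and C160 at 3.06. The region between YLR159W and RDN5-5 had 3.44 against 5.16, a difference of -1.72, with C160 at 4.49.

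Both regions kept this at 30 min, with differences of -2.14 near YLR161W and -2.09 near YLR159W. The 5S genes and the ASP3 genes among which they lie are near-identical copies, so hybridisation cannot assign the signal to 1 copy, and these values are uncertain as to place. The 3 regions named for 5S genes, which were not chosen by their values, were higher for Brf1 at 0 min. Of all regions, 44.5% were higher for Bdp1 at 0 min. RDN5-1 had a difference of 0.21 at 30 min. The region between RDN37-1 and RDN5-1, chosen after its values were seen, had no Bdp1 value at 0 min. At 30 min it had 7.41 for Bdp1 against 5.67 for Brf1, a difference of 1.74. The regions beside YLR161W and YLR159W were named for their low differences, so their direction is fixed by that choice.

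**Figure D4:**
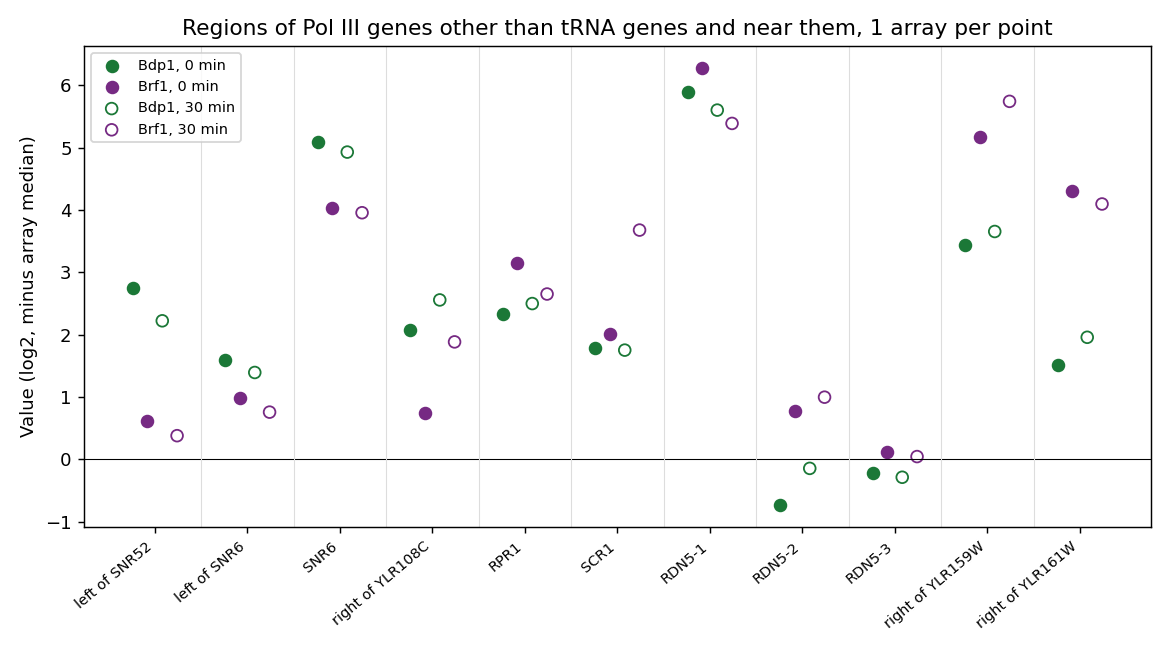
Centred log2 values (vertical axis) of Bdp1 and Brf1 at 0 min (filled) and 30 min of rapamycin (open) at regions of Pol III genes other than tRNA genes and regions near them, 1 array per point. The region left of SNR52 stands at 2.74 for Bdp1 and 0.61 for Brf1 at 0 min, and the region right of YLR161W, beside a 5S gene, at 1.51 and 4.31.

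The regions that reach a tRNA gene from the gene next to it were nearly as bright as those named for tRNA genes. The 227 with a difference had a median of 2.83 for Bdp1 and 2.69 for Brf1. Of these, 37 (16.3%) were at least 2-fold higher and 19 (8.37%) at least 2-fold lower for Bdp1. Over all regions the shares were 5.76% and 8.18%, so the lower share was at that background. Of the class 81.9% had a mean of at least 1, and of all 1515 regions that bright 14.9% were higher and 5.28% lower. The median difference of the class was 0.16, which turned to -0.85 after scaling to equal spread and -0.03 after the lowess curve.

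Regions on the 2 sides of the tRNA gene differed. The 110 regions that lie on its 5′ side had a median difference of 0.38, with 26 at least 2-fold higher (23.6%) and 6 lower (5.45%), against 0.04 for the 115 on its 3′ side, with 11 higher (9.57%) and 13 lower (11.3%). Of all regions 5.76% were higher and 8.18% lower, so the lower shares lay on either side of that background. Of the 1515 regions with a mean of at least 1, 14.9% were higher and 5.28% lower. The 5′ side was above the 3′ side by 0.27 to 0.41 under 8 settings, main one included. Values as deposited and centring on other sets of regions shift both sides alike, so those settings could not move this gap. Only the 2 scalings, the lowess curve and the chromosome medians could. Scaling to equal spread kept the gap but put neither median above 0. The orientation of the other gene moved with the side of the tRNA gene. Among other regions those between convergent genes were also lower, at -0.24 (n = 1190), than those between divergent genes, at -0.02 (n = 1354). The convergent ones were also dimmer, with medians of -0.83 for Bdp1 and -0.60 for Brf1 against 0.23 and 0.18. Beside tRNA genes the differences were -0.21 (n = 44) and 0.30 (n = 60). The 2 tandem arrangements, which keep the other gene's orientation equal to that of the tRNA gene, gave 0.41 on the 5′ side (n = 50) and 0.15 on the 3′ side (n = 71). Here the 5′ side was the dimmer, with medians of 1.68 for Bdp1 and 1.05 for Brf1 against 3.06 and 2.92. The part of brightness in these gaps was not tested.

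The widest Bdp1 excess in this class was beside GCD11, the gene of a subunit of translation initiation factor eIF2, with 5.42 for Bdp1 against 3.59 for Brf1 and a difference of 1.83 (0.56 after scaling to equal spread). The regions beside LSC1, for a subunit of mitochondrial succinyl-CoA ligase, and BUR6, for a subunit of the transcription regulator NC2, had 3.35 against 1.59 and 2.89 against 1.19. The region between STE6, the gene of the a-factor exporter, and the threonine tRNA gene TRT2 had 2.01 against 0.25. Beside HSP104, the gene of a protein disaggregase, the values were 3.08 for Bdp1 against 1.40 for Brf1, and the difference of 1.69 was 3.32 at 30 min.

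The lowest was beside TAH11, the gene of the replication licensing factor Cdt1, with 0.31 for Bdp1 against 2.17 for Brf1 and a difference of -1.87, while C160 stood at 2.66. It followed Brf1 at 30 min as well, with 1.02 against 2.64. YFR006W (0.11 against 1.97), MFM1, the gene of a mitochondrial magnesium transporter (0.38 against 1.97), MEF2, the gene of a mitochondrial elongation factor (1.70 against 3.29), and TTI1 (3.69 against 5.21) completed the low end, with differences between -1.86 and -1.52.

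The long terminal repeats, which remain from Ty retrotransposons and often lie near tRNA genes, had a median of 1.62 for Bdp1 and 1.38 for Brf1 over 238 regions. Of these, 37 (15.5%) were at least 2-fold higher and 26 (10.9%) at least 2-fold lower for Bdp1, against 5.76% and 8.18% of all regions. Of the repeats 60.5% had a mean of at least 1, and of all 1515 regions that bright 14.9% were higher and 5.28% lower. The median difference of the repeats, 0.11, turned to -0.47 after scaling to equal spread and -0.03 after the lowess curve. Delta repeats, of Ty1 and Ty2, had a median of 0.05 (n = 196) with 33 higher (16.8%) and 23 lower (11.7%). Sigma repeats, of Ty3, had 0.33 (n = 13) with 2 higher and 0 lower, tau repeats, of Ty4, 0.29 (n = 21) with 2 and 3, and omega repeats 0.08 (n = 8) with none past 2-fold.

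Some of the 5 repeats named for the highest differences were bright for Bdp1 with little polymerase. Brf1 followed C160 across repeats (r = 0.95), so a low C160 value there is not independent of that choice. YELWDELTA5 had 2.65 for Bdp1 against 0.21 for Brf1, a difference of 2.44, with C160 at -0.15 and Tau95 at 0.33. YORWSIGMA3 had 2.83 against 1.04, with C160 at 0.02, and YDLCDELTA1-0 had 2.81 against 0.93, with C160 at 0.47. At 30 min YORWSIGMA3 (1.87 against 0.09) and YDLCDELTA1-0 (2.51 against 0.01) were alike, whereas Bdp1 at YELWDELTA5 was at 0.02 and Brf1 at -0.99.

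YGLWDELTA10 was bright throughout, at 5.02 for Bdp1 and 3.23 for Brf1, with C160 at 3.20. YARCDELTA8-3 had 3.13 against 1.31, with C160 at 2.73. Among repeats with a mean of at least 1 on the 2 arrays, the lowest differences were -1.64 at YPRCDELTA19 (0.79 for Bdp1, 2.43 for Brf1), -1.54 at YCRWDELTA13 (1.10 and 2.64), -1.50 at YMRCDELTA13 (0.58 and 2.08), -1.43 at YLRCDELTA19 (1.75 and 3.17) and -1.41 at YORWTAU3 (0.76 and 2.17). In these 5 repeats C160 stood between 1.21 and 2.44, between the values of the subunits.

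Centromere regions, where the kinetochore assembles, lay near the array medians, at a median of -0.18 for Bdp1 and 0.04 for Brf1. Of the 15 with a difference, 10 were below 0 and 5 (33.3%) above, where 44.5% of all regions were above 0. Their median was -0.51, against -0.08 over all regions, and it stayed negative under each other setting. CEN9 was at -1.02 for Bdp1 against 0.33 for Brf1, and CEN2 at -1.15 against -0.07. CEN16 fell just inside 2-fold, at 0.21 against 1.21. The 5 positive ones were CEN1 (0.85), CEN4 (0.70), CEN11 (0.60), CEN6 (0.39) and CEN10 (0.06), and CEN7 had no Bdp1 value.

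CEN3, CEN4 and CEN5 reached 1 or more for Bdp1, at 1.38, 1.34 and 1.13, and CEN3, CEN5 and CEN16 did so for Brf1, at 1.95, 1.64 and 1.21. The 4403 regions in the brightness range that held all 15 centromeres, means from -1 to 2, had a median difference of -0.03. At 30 min 9 of the 15 centromeres were above 0, with a median difference of 0.36, against 0.04 over all regions.

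The other 5294 regions had a median difference of -0.10, and 239 (4.51%) were at least 2-fold higher and 414 (7.82%) at least 2-fold lower for Bdp1. The sign turned to 0.08 centred on ribosomal protein genes, 0.02 after the lowess curve and 0.29 among those with a mean of at least 1. The highest among the bright ones was the region between YER076C and MRX1, with 2.32 for Bdp1 against 0.17 for Brf1 and a tRNA gene on the far side of YER076C. Regions at YAR044W (2.70 against 0.71), TDA8 (4.60 against 2.78) and FLO5, the gene of a flocculation lectin (2.91 against 1.12), followed after that of PMD1, with C160 between 1.83 and 3.74.

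The lowest among other regions with a mean of at least 1 on the 2 arrays, besides those beside 5S genes, was beside RAS2, the gene of a GTPase of the cAMP pathway, with 0.50 for Bdp1 against 2.32 for Brf1. Next were YJL118W, at 0.54 against 2.16, and ERG5, the gene of a sterol desaturase of ergosterol synthesis, at 1.26 against 2.78. At 30 min the difference was 0.15 beside RAS2, -1.47 at YJL118W and -1.17 beside ERG5. Over the whole array 3 regions were at least 2 for Bdp1 and under 0.5 for Brf1, those of YELWDELTA5, YER076C and STE6, and 1 was the reverse, that of TAH11.

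Lists of genes not transcribed by Pol III were set against the 5.76% of all regions at least 2-fold higher and the 8.18% lower. The 125 regions of ribosomal protein genes had a median difference of -0.08, with 11 at least 2-fold higher (8.80%), led by RPL9B (1.53), RPS6B (1.47) and RPL24B (1.44), and 7 lower (5.60%), led by RPS9A (-1.51), RPL8A (-1.32) and RPL6A (-1.16). Of the 21 regions of glycolytic genes 1 (4.76%) was past 2-fold, a piece beside the hexokinase gene HXK1 (1.15), and the median was 0.16. The 38 regions of snoRNA and snRNA genes transcribed by Pol II had a median of -0.11, with none at least 2-fold higher and 6 lower (15.8%), led by SNR42 (-1.98), SNR48 (-1.67) and SNR34 (-1.21). These lists had no brightness filter, and several of the lowest members were dim. SNR42 stood at -2.28 for Bdp1 against -0.29 for Brf1, SNR34 at -1.13 against 0.08 and RPS9A at -2.23 against -0.72. Over all regions the median difference was -0.53 at means under -1 and -0.23 from -1 to 0.

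Of the 23 regions of genes that encode the Pol III machinery, 1 was past 2-fold, that of TFC3, the gene of the largest TFIIIC subunit, with 0.93 for Bdp1 against -0.14 for Brf1, and the median was -0.25. The region of BDP1 itself was at -1.20 against -0.98 and that of BRF1 at -0.11 against 0.56. TFC6, a TFIIIC subunit gene with Tau95 at 2.86 in its region, had 0.40 for Bdp1 and 0.34 for Brf1. RET1, the gene of the second-largest Pol III subunit, had 1.87 against 2.54.

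The difference also moved with position along the genome. Over 16 chromosomes, the median difference of other regions named for genes lay between -0.35 on chromosome VI and 0.23 on chromosome V. The tRNA gene median was lowest on chromosomes VIII (-0.68, n = 8) and VI (-0.63, n = 10) and highest on XI (0.43, n = 17). On chromosome V 34 of 106 bright regions (32.1%) were at least 2-fold higher for Bdp1, where 14.9% of all 1515 bright regions were.

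Chromosome V carries tS(UGA)E, YELWDELTA5, GCD11, BUR6, YER076C and PMD1 among the regions named above. It also carries RPR1 (-0.82), SCR1 (-0.22) and CEN5 (-0.50), which were lower for Bdp1. With the chromosome medians subtracted, an alternative chosen after the data were seen, tS(UGA)E stood at 2.53 and PMD1 at 1.90. Regions that are pieces of a divided longer one were also higher, with medians of 0.52 against -0.04 for undivided ones among tRNA genes (n = 13 and 232) and 0.35 against -0.13 among other regions (n = 408 and 4886). Among other regions the pieces were also brighter, with medians of 1.16 for Bdp1 and 0.84 for Brf1 against -0.29 and -0.14. Among tRNA genes the medians were 4.17 and 2.71 in pieces against 3.19 and 3.10. The part of chromosome, of brightness and of region length in any single value was not tested.

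The pair of arrays at 30 min of rapamycin, which shares no array with the pair at 0 min, gave a measure of how far single regions recur. The difference at 0 min and that at 30 min had r = 0.57 across 241 tRNA gene regions and 0.56 across 5510 regions in all, as a description over shared probes. Of the 32 tRNA gene regions higher for Bdp1 at 0 min with a value at 30 min, 23 (71.9%) were at least 2-fold higher again, which is 26.1% of the 88 that were so at 30 min. Over all regions 148 of 333 recurred (44.4%). The 88 were themselves 36.5% of tRNA gene regions, and 12.7% of all regions at 30 min were at least 2-fold higher.

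Of the 30 tRNA gene regions lower at 0 min, 7 (23.3%) were at least 2-fold lower again, which is 41.2% of the 17 that were so at 30 min, where 9.38% of all regions were, and 24 were below 0. Over all regions 167 of 434 recurred (38.5%), and among other regions 41.2% did, so the recurrence of low tRNA gene regions was below both. At 30 min 7.05% of tRNA gene regions were at least 2-fold lower, against 9.64% of other regions, and the tRNA gene median stood at 0.57. The part of this higher class median in the low recurrence was not tested. Among long terminal repeats 27 of 35 regions (77.1%) stayed at least 2-fold higher, which is 36.5% of the 74 at 30 min, when 32.0% of repeats were so, and among other regions 75 of 228 did (32.9%, and 15.8% of 474). The Brf1 array at 30 min lacked 639 values. The interquartile range over tRNA gene regions was 1.07 for Bdp1 minus Brf1 at 0 min, 0.51 for Bdp1 at 30 min minus 0 min and 1.20 for Brf1 at 30 min minus 0 min, so the Brf1 arrays of the 2 times differed from each other about as widely as the subunits did at 0 min.

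**Figure D5:**
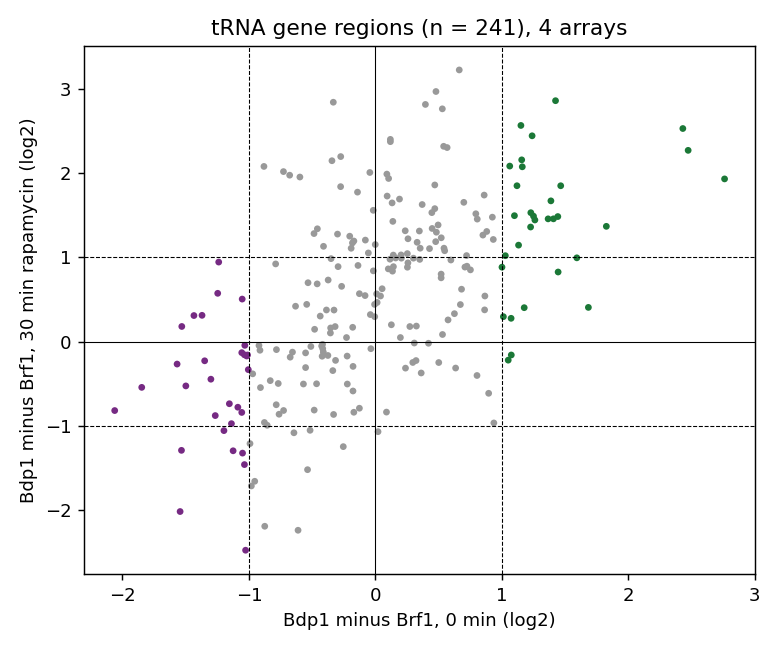
Bdp1 minus Brf1 (log2) at 30 min of rapamycin (vertical axis) against 0 min (horizontal axis) for 241 tRNA gene regions, with dashed lines at 2-fold. Green points were at least 2-fold higher for Bdp1 at 0 min and purple points at least 2-fold lower. Of the 32 green points 23 lie above the upper dashed line, and of the 30 purple points 7 lie below the lower one.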

How the data were processed

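Chromatin immunoprecipitated with antibodies to epitope tags was hybridised to arrays of intergenic regions. The authors deposited 1 log2 value per region and sample, per the labels from triplicate experiments normalised to a median ratio of 1 over a list of loci that Pol III factors do not occupy. Background correction, scanner software and genome build were not given in the sources used here. Base 2 was inferred from the spacing of the values and was weak on some arrays. The design assumed a ratio, and its summaries were applied to values read as brightness.

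Each array was centred on its median. No test was made with 1 array a side. A region was taken to lie on the side of higher coordinates of its named gene: those with a tRNA gene on that side had a median of 2.81 for Bdp1 and 2.72 for Brf1, whereas a tRNA gene on the lower side gave 0.06 for both (n = 210 and 192). Names and neighbours came from RefSeq (assembly R64), in which 5525 of 5806 regions named for genes were found.

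The members and lists were chosen with earlier results of these data known. Named were the 5 highest and 5 lowest differences per class among regions with a mean of at least 1, all regions of other Pol III genes and centromeres, the 3 brightest tRNA regions, regions at least 2 on 1 array and under 0.5 on the other, and up to 3 extremes of the fixed lists. Alternatives were other centrings, 2 scalings, a lowess curve (span 0.3), a brightness filter and, chosen after seeing the data, chromosome medians. Python 3.11.15, pandas 2.3.3 and statsmodels 0.14.6 were used, and scripts were tested on simulated data.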

Additional observations from a re-analysis of the deposited data

Results flagged for a closer look

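The median difference over tRNA gene regions was -0.0048 at 0 min and 0.57 at 30 min, and that over centromere regions was -0.51 at 0 min and 0.36 at 30 min. In both classes the 2 times gave opposite signs, and the difference between them was not tested, since each time has 1 array a side. For tRNA genes the opposite sign rests on the centring, as the median at 0 min was above 0, at 0.031 to 0.18, under 5 of the 8 alternatives. The Brf1 array at 30 min lacked 639 values, and the part of this in the shifts was not tested.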

How the results depend on the processing

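No paired analysis was possible because each group has 1 array. Of 46 named regions past 2-fold, 39 stayed past it and 44 kept their sign under the 7 alternatives that can move a single value. The brightness filter cannot, and it drops 3 of them (RDN5-2, CEN2 and CEN9). SNR6 and tL(CAA)A turned, to -0.37 and -0.34, with the Brf1 array scaled to the spread of the Bdp1 array. That scaling also gave medians of -1.15 for tRNA genes, -1.35 for other Pol III genes, -0.47 for long terminal repeats and -0.85 beside tRNA genes, and counts of 887 regions lower, 6 tRNA regions higher and 140 lower. Centred on ribosomal protein genes, medians were 0.18 for tRNA genes, -0.18 for other Pol III genes, 0.30 for repeats, -0.32 for centromeres, 0.34 beside tRNA genes and 0.082 for other regions, with 562 regions higher, 285 lower and 15 tRNA regions lower. Scaled to the tRNA median, they were -0.15 for tRNA genes, -0.49 for other Pol III genes and 0.041 beside tRNA genes. After the lowess curve they were -0.22 for tRNA genes, -0.61 for other Pol III genes, -0.027 for repeats, -0.33 for centromeres, -0.032 beside tRNA genes and 0.023 for other regions, with 223 regions and 16 tRNA regions higher. With chromosome medians subtracted they were 0.11 for tRNA genes, -0.25 for centromeres, 0.27 beside tRNA genes and -0.00028 for other regions, with 20 tRNA regions lower. Among regions with a mean of at least 1, other regions had 0.29, with 225 regions higher and 80 lower. As deposited 19 tRNA regions were lower, and 20 when centred on regions away from Pol III genes and repeats. The cause of these shifts was not tested. The number of arrays limits the precision, and dim regions missing from the Bdp1 array were not compared.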
